A study of Homo sapiens with 24 samples.

Results

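The genes described here encode the nuclear subunits of the mitochondrial respiratory chain and of ATP synthase. They were chosen by symbol alone, as genes named NDUFA, NDUFB, NDUFC, NDUFS or NDUFV with a number, SDHA to SDHD, CYC1, and the UQCR, COX4 to COX8 and ATP5 genes. Of 182 rows that matched, 95 carried pseudogene symbols and were dropped, which left 87 of 58825 genes. They comprised 36 subunits of complex I, 4 of complex II, 10 of complex III, 18 of complex IV and 19 of complex V. NDUFA4 bears a complex I name and was placed in complex IV, where its protein is now known to sit.

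Polyadenylated RNA was sequenced from SK-HEP-1 cells. This established human line came from a liver tumour and is classed as endothelial in the labels. All 6 lines carried CRISPR interference, in which a guide RNA brings a catalytically dead Cas9 repressor to a promoter. NTC1 and NTC2 had 1 non-targeting guide each, and sg2, sg4, sg5 and sg6 had 1 guide each against PURPL, a long noncoding RNA induced by p53. Each line was given DMSO or 10 µM Nutlin-3a, which frees p53 from its inhibitor MDM2, for 6 h and harvested as biological replicates numbered 1 and 3, giving 24 libraries. Whether a line is 1 clone or a pool is not given in the sources used here, and the spread between harvests of a line is not the spread between independently made lines.

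In the respiratory chain complex I takes electrons from NADH and complex II takes them from succinate. Both pass them through ubiquinone to complex III, and cytochrome c carries them on to complex IV, which reduces oxygen. Complexes I, III and IV pump protons, and ATP synthase, complex V, uses the gradient to make ATP. A few core subunits are encoded in mitochondrial DNA, whereas the nucleus encodes all of complex II and the remaining subunits, many of them small accessory proteins. p53 is known to act on this system through single targets such as SCO2, an assembly factor of complex IV.

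Library totals ranged from 66.4 M to 92.1 M counts, and PURPL was far lower in every guide library than in the NTC libraries of the same treatment. In DMSO it lay between 7.40 and 10.1 CPM (counts scaled to the library size with TMM factors, here and below) in the NTC libraries and between 0.273 and 0.868 CPM in the guide libraries, a log2 difference of -3.99 (exact two-sided permutation p = 0.0667 over 6 lines, the smallest that 15 splits allow). The endothelial genes PECAM1 and CDH5 reached at most 0.0277 and 0.0590 CPM in 23 libraries, while VIM lay above 3566 CPM, so both endothelial markers were near 0. The other genes on the list of 16 cell type markers are not given here, and the identity of the cells is not judged. Harvest 1 of sg2 under Nutlin-3a stood apart. Its log2 levels relative to the other libraries had a slope of 1.55 per 10 percentage points of GC in the transcript, and the other 23 had slopes of -0.222 to 0.351. It is called the divergent library below and was left out of the main tests, so the guide lines have 7 libraries with Nutlin-3a. The NTC1 library with DMSO from harvest 3 also differed from the rest, with a median over subunit genes 0.287 (log2) above the libraries' mean, against -0.147 to 0.197 in the other 22.

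The subunit genes together made up 0.720% to 0.938% of counts in the 23 libraries and 1.04% in the divergent one. Of the 87 genes 80 passed the filter on low counts. The other 7 are tissue-restricted isoforms or near-silent copies. COX4I2, COX6A2, COX7A1 and COX7B2 had no count in any library, which allows up to 0.0452 CPM in the smallest library, and COX6B2, COX8C and ATP5MGL reached at most 6, 2 and 3 counts. Their partners were abundant: COX4I1, the common isoform of the largest nuclear subunit of complex IV, had 71.3 CPM on average over 23 libraries. The same held for COX6A1 and COX7A2, the ubiquitous partners of COX6A2 and COX7A1, with 141 and 168 CPM per kb.

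Per kilobase of the median length of a gene's annotated transcripts, the levels ran from 1281 CPM per kb for ATP5F1B, the catalytic beta subunit of ATP synthase, to 0.680 CPM per kb for NDUFS7, which carries an iron-sulfur cluster of complex I. The other main subunits of the F1 head followed ATP5F1B, at 848 CPM per kb for ATP5F1A (alpha) and 577 for ATP5F1C (gamma). Within complex II the membrane anchors SDHC and SDHD had 246 and 219.5 CPM per kb, the iron-sulfur subunit SDHB 138 and the flavoprotein SDHA 68.1. In complex III UQCRC2, a core scaffold protein, had 259.6 CPM per kb, whereas the cytochrome c1 gene CYC1 had 23.4 and the Rieske iron-sulfur gene UQCRFS1 43.9. NDUFA4 led complex IV with 279 CPM per kb, ahead of COX5A with 248. The c-ring genes ATP5MC3, ATP5MC2 and ATP5MC1, which encode the same mature proton-carrying protein, had 220.6, 158 and 114 CPM per kb. These levels depend on the length used. Per kilobase of the longest transcript ATP5F1B and NDUFS7 were still the highest and lowest of the 80 genes, at 567 and 0.191 CPM per kb, but several orders turned. ATP5F1A (114) then lay below ATP5F1C (297), SDHC (11.8) below SDHA (26.8), SDHB (80.7) and SDHD (118), NDUFA4 (69.9) below COX5A (112), and ATP5MC3 (33.9) below ATP5MC2 (59.7). UQCRC2 kept a higher level than UQCRFS1 and CYC1, at 58.2 against 43.9 and 13.2 CPM per kb. UQCRHL is a near-identical copy of UQCRH, so the split of reads between them (3.93 against 269 CPM per kb) is uncertain.

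Subunits of 1 complex occur in fixed ratios in the protein, but their transcript levels differed widely, and the lowest of the 80 belonged to GC-rich genes. A pair of coding sequences shows the contrast, and each is the first 300 bases of the longest complete coding sequence in GENCODE 29, with runs of at least 6 G or C in capitals. NDUFA5, an accessory subunit of complex I (chr7:123536997-123558255, minus strand, hg38), has 41% GC there and 1 such run, and NDUFB7, an accessory subunit of the complex I membrane arm (chr19:14566078-14572062, minus strand, hg38), has 65.3% GC and 4.
NDUFA5: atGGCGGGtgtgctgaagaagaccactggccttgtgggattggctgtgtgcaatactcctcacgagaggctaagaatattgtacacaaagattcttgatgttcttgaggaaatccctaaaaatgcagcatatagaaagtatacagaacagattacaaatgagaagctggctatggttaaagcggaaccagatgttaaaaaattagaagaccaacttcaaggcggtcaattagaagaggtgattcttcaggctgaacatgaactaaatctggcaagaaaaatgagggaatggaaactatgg
NDUFB7: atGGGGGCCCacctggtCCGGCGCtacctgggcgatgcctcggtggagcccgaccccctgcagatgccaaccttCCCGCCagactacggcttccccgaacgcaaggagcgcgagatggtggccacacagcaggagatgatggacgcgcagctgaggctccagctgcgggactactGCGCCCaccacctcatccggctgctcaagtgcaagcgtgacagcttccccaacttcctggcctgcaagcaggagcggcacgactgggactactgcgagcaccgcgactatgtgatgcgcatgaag

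NDUFB7 had between 0.313 and 1.90 CPM in the 23 libraries and 53.4 CPM in the divergent library. NDUFS7 had between 0.402 and 1.42 CPM in the 23 libraries and 34.4 CPM in the divergent one, and ATP5F1D, the delta subunit of the F1 head, between 0.565 and 2.53 CPM against 55.5 CPM. In each case the divergent library lay far above the highest of the others. NDUFA5 went the other way, at 100.1 CPM per kb in the mean of 23 libraries and 44.1 in the divergent one. Over the 80 genes, log2 level per kb and GC content had a Pearson r of -0.67 (Spearman -0.60) in the mean of the 23 libraries and -0.00 (-0.02) in the divergent library. With the longest transcript as the length r was -0.60 and 0.12. Over the 16541 tested genes with a known GC content and a count in the divergent library, r was -0.20 and 0.14 with the median length. These are descriptions across genes of the same libraries, not tests.

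**Figure D1:**
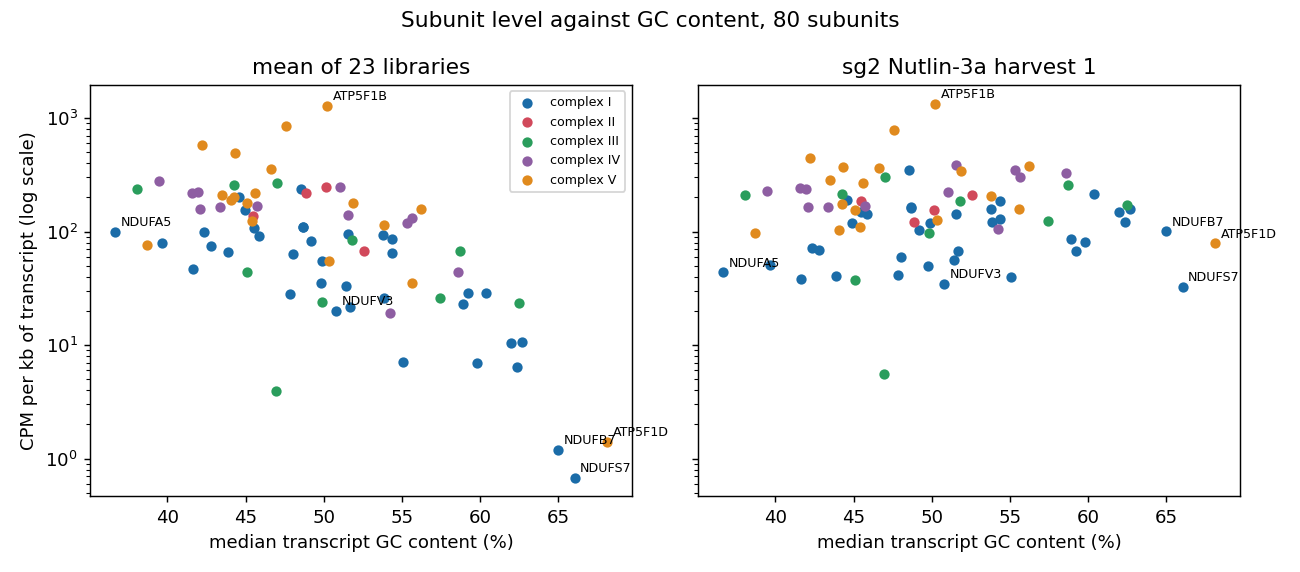
Level per kb of transcript (vertical, log scale) against the median GC content of a gene's transcripts (horizontal) for 80 subunit genes, coloured by complex, in the mean of 23 libraries (left) and the divergent library (right). On the left the genes at or above 60% GC have a median of 8.43 CPM per kb and those below 45% one of 189.5; on the right the medians are 135 and 165.

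By GC class, the 21 genes below 45% GC had a median of 189.5 CPM per kb, the 22 from 45% to 50% 110.3, the 18 from 50% to 55% 85.0, the 11 from 55% to 60% 35.0 and the 8 at or above 60% 8.43. In the divergent library the same classes had medians of 165, 146, 156, 159.6 and 135. The 8 genes at or above 60% were 7.27 to 84.3 times as high there as in the mean of the others. Since the libraries differ in their GC slope, the responses below are also given after a lowess trend on GC content was subtracted within each library.

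Few subunit genes were called with Nutlin-3a in the NTC lines. The test was of the mean of NTC1 and NTC2, whose subunit medians lay on either side of 0, as given below. With 4 libraries per treatment, 2 of 80 rose and 1 fell (edgeR quasi-likelihood test, adjusted p under 0.05), where 8.88% of the 16697 genes tested rose and 15.9% fell. The median subunit log2 change was -0.03, beside -0.06 over all genes tested, and it was 0.04 without NTC1 DMSO harvest 3. With the GC trend removed 3 rose, NDUFV3, SDHC and SDHA (0.18, edgeR adjusted p = 0.041), beside 14.4% of all genes. With RLE size factors 1859 genes rose and 1903 fell in place of 1482 and 2655, so the balance of all genes depends on the scaling. UQCRFS1, the gene that fell, then had -0.08 and did not pass (edgeR adjusted p = 0.256).

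NDUFV3, an accessory subunit of the complex I NADH module (chr21), was the clearest. In DMSO it had 31.7 and 35.4 CPM in NTC1 and 28.5 and 27.0 CPM in NTC2. With Nutlin-3a the values were 41.3 and 40.7 CPM in NTC1 and 42.9 and 43.9 CPM in NTC2. The groups did not overlap, and the log2 change was 0.43 (SE 0.06, edgeR adjusted p = 4.2e-05). SDHC, a membrane anchor of complex II, had 148 CPM in both NTC1 harvests and 145 and 147 CPM in NTC2 with DMSO, and 166, 172, 166 and 174 CPM in the same order with Nutlin-3a. All 4 treated libraries were higher, with a log2 change of 0.17 (SE 0.04, edgeR adjusted p = 0.0055). With the divergent library kept in the model the change was 0.21 (SE 0.12) and the call was lost (edgeR adjusted p = 0.383). UQCRFS1, the Rieske protein of complex III, had 156, 173, 157 and 156 CPM with DMSO and 147, 149.8, 149 and 149 CPM with Nutlin-3a, a log2 change of -0.15 (SE 0.05, edgeR adjusted p = 0.039). Its groups also did not overlap, but the call was lost in 19 of 35 alternative settings, with an edgeR adjusted p of 0.088 with the GC trend removed and 0.149 without NTC1 DMSO harvest 3.

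In the 4 guide lines, with 8 libraries in DMSO and 7 in Nutlin-3a, 35 of 80 subunit genes rose and 1 fell (edgeR, adjusted p under 0.05). Over all genes 15.9% rose and 22.7% fell, 2647 and 3782 genes, or 3209 and 3221 with RLE size factors. The median subunit change was 0.15 on the log2 scale against -0.00 over all genes tested, so the changes were small: the 10 risers with the smallest p rose by 0.15 to 0.43, and the largest called rise was 0.60, in NDUFS7. Without sg4 Nutlin-3a harvest 1 the count was 21 up (13.3% of all genes) and 1 down, and without sg6 Nutlin-3a harvest 3 it was 19 up (13.0% of all genes) and 1 down. With the GC trend removed it was 62 up, beside 23.0% of all genes, and with the divergent library kept it was 42 up, beside 17.7%. Of the 35 genes 26 were up in all of the main fit, the fit with the GC trend removed, the fit with the divergent library and the fit with RLE size factors.

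**Figure D2:**
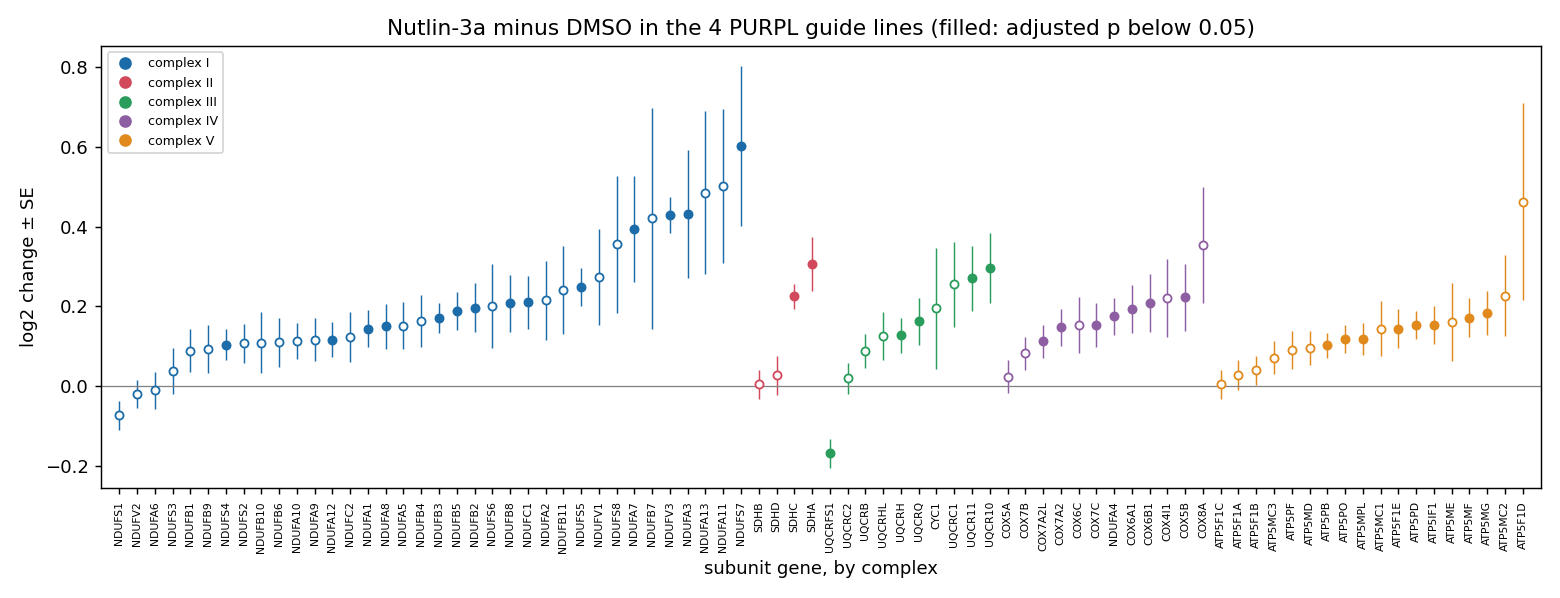
Log2 change with Nutlin-3a in the 4 guide lines for each of 80 subunit genes (points, bars ± SE), ordered by complex and size, with filled points for edgeR adjusted p below 0.05. Most points lie above 0 with a median of 0.15, and UQCRFS1 is the 1 filled point below 0.

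In complex I 14 of 36 genes rose. NDUFV3 had 29.4 to 33.5 CPM (median 31.2) with DMSO and 38.2 to 45.1 CPM (median 41.8) with Nutlin-3a. Its groups did not overlap, and its change of 0.43 (SE 0.04, edgeR adjusted p = 8.0e-07) equalled that in the NTC lines to 2 decimals. NDUFS5, a small accessory subunit, had 108 to 121 CPM (median 117) with DMSO and 131 to 151 CPM (median 139) with Nutlin-3a, again without overlap, a change of 0.25 (SE 0.05, edgeR adjusted p = 0.00053). NDUFB3, a membrane-arm subunit, had 45.04 to 50.4 CPM (median 48.6) and 51.9 to 57.0 CPM (median 55.5), a change of 0.17 (SE 0.04, edgeR adjusted p = 0.0016). NDUFB5 of the same arm changed by 0.19 (SE 0.05, edgeR adjusted p = 0.0044), with values of 51.0 to 59.9 CPM and 56.9 to 67.9 CPM that overlapped. Of the 7 conserved core subunits of complex I, which bind the flavin and the iron-sulfur clusters, 1 rose, NDUFS7 (0.60, SE 0.20, edgeR adjusted p = 0.025), whose level was 0.402 to 1.42 CPM. NDUFS1 and NDUFV2, core subunits of the NADH module, had -0.07 and -0.02 and did not pass. Of the 29 accessory subunits 13 rose. With the GC trend removed 4 of the 7 core and 23 of the 29 accessory subunits rose.

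In complex II SDHC rose by 0.23 (SE 0.03, edgeR adjusted p = 1.7e-05), from 145 to 155 CPM (median 148) with DMSO to 169 to 184 CPM (median 176) with Nutlin-3a. With the divergent library kept its change was 0.15 (SE 0.08) and was not called (edgeR adjusted p = 0.151). SDHA rose by 0.31 (SE 0.07, edgeR adjusted p = 0.0018), from 63.4 to 76.7 CPM (median 72.3) to 80.01 to 112 CPM (median 86.5). Neither gene's groups overlapped. SDHC in the divergent library had 101 CPM, below every other library, and SDHA had 250.9 CPM, above every other library. SDHB and SDHD changed by 0.01 and 0.03 and did not pass. SDHC overlaps CFAP126 on the opposite strand, and without a statement that the counting used the strand the reads of such pairs cannot be told apart; 42 of the 87 genes overlap an annotated gene on the other strand.

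**Figure D3:**
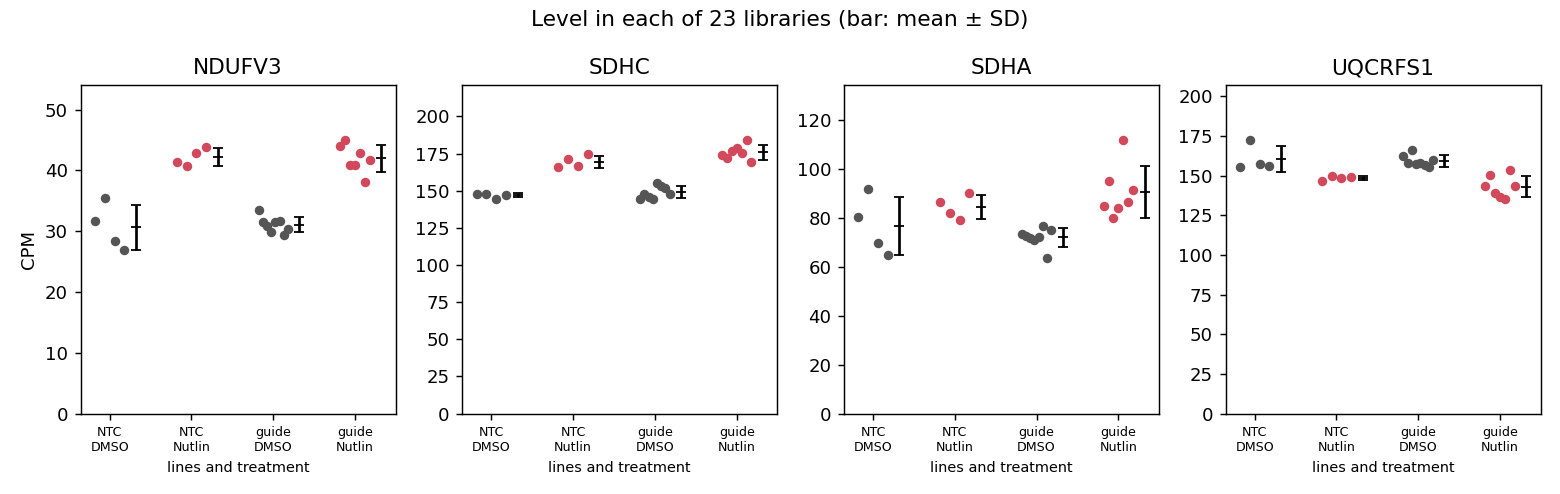
CPM in each of 23 libraries for NDUFV3, SDHC, SDHA and UQCRFS1, in NTC and guide lines with DMSO (grey) or Nutlin-3a (red), with the mean ± SD beside the points. NDUFV3 and SDHC are higher and UQCRFS1 lower with Nutlin-3a in every library of both sets of lines.

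In complex III UQCR10, UQCR11, UQCRH and UQCRQ, all small accessory subunits, rose by 0.30, 0.27, 0.13 and 0.16. UQCRFS1 fell by 0.17 (SE 0.04, edgeR adjusted p = 0.0016), from 155 to 166 CPM (median 158) with DMSO to 135 to 153 CPM (median 143) with Nutlin-3a, without overlap. With the GC trend removed its change was -0.10 and its adjusted p 0.062, so its fall in the guide lines was not called in that setting. UQCRFS1 overlaps AC007786.1 on the other strand. CYC1 (0.20, SE 0.15) and UQCRC2 (0.02, SE 0.04) did not pass. With the GC trend removed UQCRC2 was called up (0.10, edgeR adjusted p = 0.040) and CYC1 was not.

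In complex IV 7 of 12 genes rose. COX5B, COX6B1 and COX6A1 rose by 0.22, 0.21 and 0.19, and NDUFA4, which had the smallest p, by 0.18 (SE 0.05, edgeR adjusted p = 0.0065). NDUFA4 had 131 to 144 CPM (median 139) with DMSO and 147 to 167 CPM (median 159) with Nutlin-3a, without overlap. COX5A, a nuclear subunit on the matrix side, changed by 0.02 and COX4I1 by 0.22 (SE 0.10), and neither passed. With the GC trend removed COX4I1 was called up (0.19, edgeR adjusted p = 0.013) and COX5A was not. In complex V 8 of 18 rose. ATP5PD, subunit d of the peripheral stalk, rose by 0.15 (SE 0.04, edgeR adjusted p = 0.0023), with 98.4 to 109 CPM and 107 to 120.3 CPM. ATP5IF1, which inhibits ATP hydrolysis by the enzyme, rose by 0.15 (SE 0.05, edgeR adjusted p = 0.016). In the F1 head 1 of 5 genes rose, ATP5F1E (epsilon) by 0.14, while ATP5F1A, ATP5F1B and ATP5F1C changed by 0.03, 0.04 and 0.00 and did not pass. None of the 3 c-ring genes passed, with changes of 0.14 for ATP5MC1, 0.23 for ATP5MC2 and 0.07 for ATP5MC3. With the GC trend removed 2 of the 5 F1 head genes, ATP5F1E and ATP5F1C, and all 3 c-ring genes rose, beside 23.0% of all genes.

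Counted by whole libraries, 13 subunit genes in the guide lines had every Nutlin-3a library above every DMSO library (6.71% of all genes tested did), and UQCRFS1 had every one below (12.2% of all genes). In the NTC lines 3 were above, NDUFV3, SDHC and UQCRC2, and UQCRFS1 was below, where 11.0% and 12.4% of all genes did so.

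The medians of the lines ranged widely, with the NTC lines on either side of 0. The median subunit change with Nutlin-3a was -0.14 in NTC1, with 72 of 80 genes below 0, and 0.12 in NTC2, with 69 above 0. In sg2, with its harvest 3 library alone for Nutlin-3a, it was 0.02, in sg4 0.17, in sg5 0.19 and in sg6 0.18. Over all genes tested the medians were -0.06, -0.03, -0.06, -0.01, 0.02 and 0 in the same order from NTC1 to sg6. Shares of all genes above or below 0 are not given. With the GC trend removed the subunit medians were -0.10, 0.16, 0.09, 0.20, 0.23 and 0.22 in that order. Those over all genes were then 0.01 to 0.02. The NTC1 value rests on the DMSO library of harvest 3, in which the subunit genes stood highest. Without it the NTC1 median was -0.02, with 33 genes above 0 and 47 below, and without harvest 1 in its place it was -0.30. The NTC2 median was 0.07 without its DMSO harvest 3 and 0.04 without its Nutlin-3a harvest 3, and the sg2 median was 0.04 without DMSO harvest 1 and -0.00 without DMSO harvest 3. The sg4 median was 0.08 without Nutlin-3a harvest 1 and the sg5 median 0.12 without Nutlin-3a harvest 3. Of the 35 genes called up in the guide lines, 32 were above 0 in NTC2 and 6 in NTC1. In all 6 lines 5 genes were above 0 and UQCRFS1 alone was below 0. The difference between the NTC2 and NTC1 responses, a test chosen after seeing the data, had a subunit median of 0.28 (0.14 without NTC1 DMSO harvest 3) but called 0 of 80 genes (edgeR; 0% of all genes, 21 at an unadjusted p under 0.05).

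**Figure D4:**
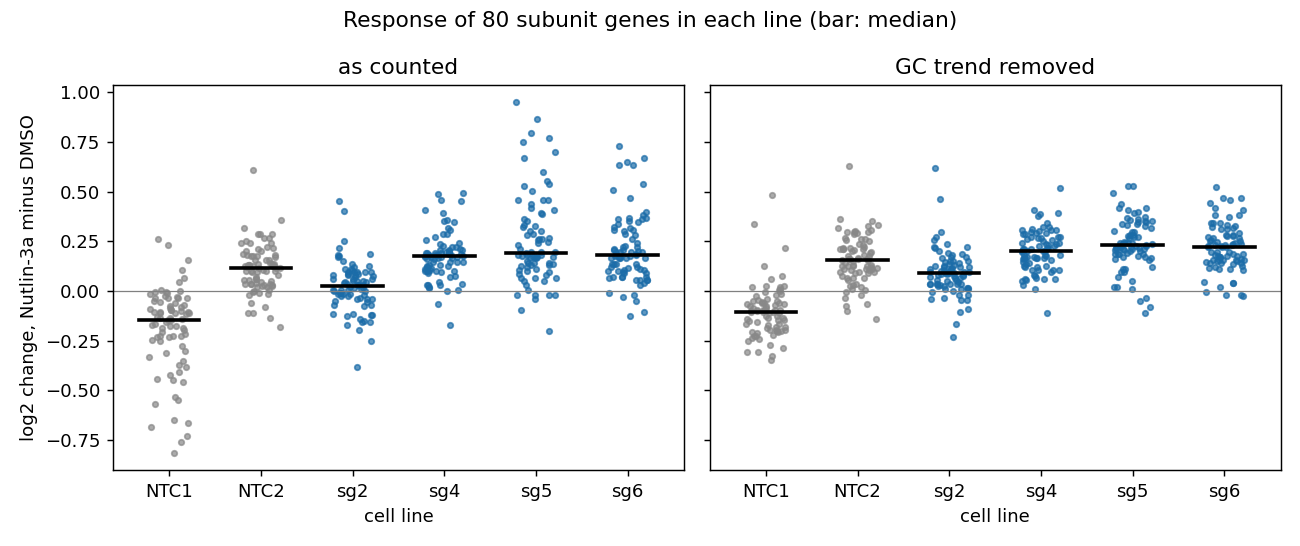
Log2 change with Nutlin-3a (vertical) of 80 subunit genes in each line, as counted (left) and with the GC trend of each library removed (right), where black bars are medians. The NTC1 median is -0.14 as counted and -0.10 with the trend removed, and those of the other lines are 0.02 to 0.19 and 0.09 to 0.23.

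Summed over the 87 genes, the guide libraries lay between 7555 and 7784 CPM with DMSO and between 8016 and 8650 CPM with Nutlin-3a, with no overlap. The NTC libraries lay between 7482 and 8971 CPM with DMSO, where the highest is NTC1 harvest 3, and between 7989.9 and 8345 CPM with Nutlin-3a. The 13 subunits encoded in mitochondrial DNA summed to 6970.4 to 7838 CPM with DMSO and 9587 to 13339 CPM with Nutlin-3a in the NTC lines, and to 7454 to 9751 CPM and 9329.6 to 11522 CPM in the guide lines, where the ranges overlapped.

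**Figure D5:**
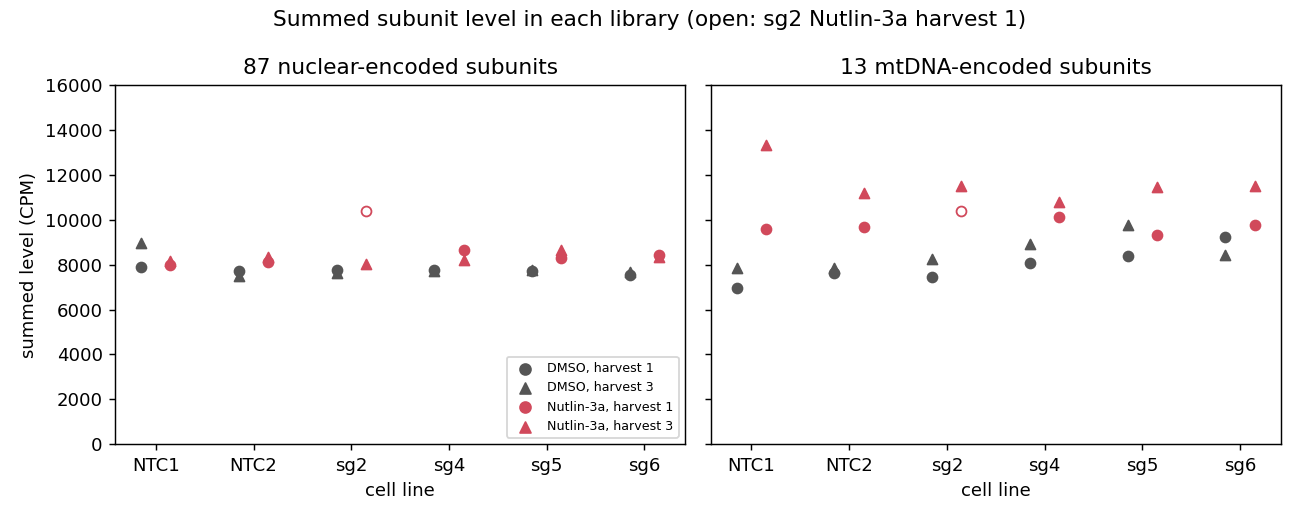
Summed CPM per library of the 87 nuclear-encoded subunit genes (left) and the 13 mitochondrially encoded ones (right), by line, with circles for harvest 1 and triangles for harvest 3. The divergent library is open, at 10381 CPM on the left and 10404 CPM on the right.

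Silencing PURPL was followed by no call among the subunit genes. In DMSO 0 of 80 differed between the 4 guide lines and the 2 NTC lines (edgeR on sums of harvests; 0.00601% of all genes called, 3 subunit genes at an unadjusted p under 0.05), and the median difference was -0.11. In Nutlin-3a 0 of 80 differed (0.00596% of all genes; 0 at an unadjusted p under 0.05), with a median of 0.05. The difference between the responses of guide and NTC lines called 0 of 80 (0% of all genes; 8 at an unadjusted p under 0.05), with a smallest adjusted p of 0.61 for NDUFS7. The larger number of calls in the guide lines than in the NTC lines is thus not shown to be a different response. Without NTC2, so against NTC1 alone, 55 subunit genes were lower in guide lines with DMSO (18.9% of all genes) and 38 had a larger response (8.46% of all genes), and without NTC1 both counts were 0, with medians of 0.03 and -0.00. The fit against NTC1 alone has 1 NTC sample per treatment, and its DMSO sum holds harvest 3, so the spread comes from the guide lines and the lone sample is assumed to vary like them. DESeq2 called 0 in each of these comparisons. Among the 6 lines in DMSO edgeR called 0 of 80 (0.0659% of all genes; 17 at an unadjusted p under 0.05) and DESeq2 20 (11.7% of all genes).

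Promoters were taken from RefSeq (GRCh38.p14) as 250 bases before and 50 after the start, and 70 of 87 genes matched. Each was searched on both strands for the ETS and GABP motif CCGGAAG, the YY1 motif AAGATGG, and the NRF1 consensus and a full p53 site, the last pair by name. NRF1, GABP and YY1 are known to drive subunit genes. ETS letters occurred in 20 of the 70 (28.6%; 10.7% of 27305 promoters), YY1 letters in 16 (22.9%; 6.06%) and the NRF1 consensus in 6 (8.57%; 1.59%). No subunit promoter held the full p53 site, which 0.0183% of all promoters do. Among the 31 matched genes called up in the guide lines, 9 held ETS letters, 9 YY1 letters and 4 the NRF1 consensus, and among the 35 other tested genes 11, 7 and 2 did. The 250 bases before the start are shown for NDUFV3, the riser with the smallest p, for UQCR11, a riser picked because it holds several matches, and for UQCRFS1, the gene that fell. Capitals mark matches to any of the 4 motifs.
NDUFV3 (chr21:42893059-42893308, plus): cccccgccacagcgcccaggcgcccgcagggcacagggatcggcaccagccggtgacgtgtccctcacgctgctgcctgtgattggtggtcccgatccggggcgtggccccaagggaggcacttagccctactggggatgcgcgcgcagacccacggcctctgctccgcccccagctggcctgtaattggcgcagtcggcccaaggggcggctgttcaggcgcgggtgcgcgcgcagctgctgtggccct
UQCR11 (chr19:1605463-1605712, minus): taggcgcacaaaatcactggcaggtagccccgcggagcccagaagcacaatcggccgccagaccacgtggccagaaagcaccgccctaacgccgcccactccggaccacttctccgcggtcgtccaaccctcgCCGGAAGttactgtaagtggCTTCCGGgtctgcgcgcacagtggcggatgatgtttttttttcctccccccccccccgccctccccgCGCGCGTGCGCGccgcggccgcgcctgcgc
UQCRFS1 (chr19:29213152-29213401, minus): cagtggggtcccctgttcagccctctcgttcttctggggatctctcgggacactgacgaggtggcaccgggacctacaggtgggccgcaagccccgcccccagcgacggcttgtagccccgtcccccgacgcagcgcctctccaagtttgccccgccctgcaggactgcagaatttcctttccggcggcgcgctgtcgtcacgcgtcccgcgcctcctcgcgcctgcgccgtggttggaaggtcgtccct

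UQCR11 holds ETS letters at bases 134 to 140 and, on the other strand, at bases 154 to 160, and the NRF1 consensus at bases 221 to 232, counted from the 5′ end of the stretch shown. NDUFV3 and UQCRFS1 hold none of the 4 motifs in the stretch. A match describes letters and not binding.

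The genes that work with the subunits were counted by lists chosen for this description. Each count stands beside the shares of all genes tested. In the NTC lines 8.88% of all genes rose and 15.9% fell, and in the guide lines 15.9% rose and 22.7% fell. Of 13 mitochondrially encoded subunits 8 rose in the NTC lines (edgeR, adjusted p under 0.05; median 0.48) and 6 in the guide lines (median 0.30), among them MT-CO1, a catalytic subunit of complex IV, by 0.52 (SE 0.07) and 0.40 (SE 0.06). Their RNA also reflects RNA quality and organelle content, and that part was not tested. Of 15 regulators of mitochondrial biogenesis tested 0 rose and 7 fell in the NTC lines, and 0 rose and 9 fell in the guide lines (medians -0.41 and -0.22). NRF1, a transcription factor for subunit genes, had -0.50 (SE 0.09) and -0.46 (SE 0.07), YY1 -0.42 (SE 0.06) and -0.44 (SE 0.04), and the coactivator PPARGC1B -0.88 (SE 0.11) and -1.04 (SE 0.09), all called in edgeR. GABPA and GABPB1, the subunits of the ETS factor GABP, fell in the guide lines by 0.21 and 0.22 and did not pass in the NTC lines. Of 23 complex IV assembly genes 0 rose and 5 fell in the NTC lines, and 1 rose and 6 fell in the guide lines, beside 15.9% and 22.7% of all genes that fell. SCO1, a copper chaperone, had -0.28 and -0.31 and COA7 -0.46 and -0.49. Values for SCO2 and for the 1 gene that rose are not given here. Of 16 complex I assembly genes 0 rose and 2 fell in the NTC lines, and 3 rose and 4 fell in the guide lines, where 15.9% of all genes rose. Of 12 p53-linked mitochondrial genes tested 8 rose in both sets, with ISCU, the iron-sulfur scaffold protein, at 1.08 and 1.10 and TIGAR at 1.75 in both, above the 0.60 of NDUFS7, the subunit gene with the highest value in the guide lines.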

How the data were processed

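The 24 SK-HEP-1 libraries were made with a stranded TruSeq mRNA kit, per the labels' protocols. The deposited values are expected counts per gene, which the authors made with RSEM. The submitters' processing notes also name cutadapt, STAR, DESeq2 and hg38. Neither a version nor the strand setting of the counting is given in the sources used here. The 45 rows of pseudoautosomal Y copies (0.0222% of counts) were added to the X rows and counts were rounded to whole numbers.

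Counts were tested with edgeR 4.0.16 (R 4.3.3, robust quasi-likelihood F test, TMM, filterByExpr with a minimum count of 10, Benjamini-Hochberg over all genes, 0.05). The 2 Nutlin-3a responses, the lines and the difference between NTC lines used 1 model of 12 group means over 23 libraries, without the divergent library. The guide comparisons used sums of the harvests of a line. SE is the log2 change divided by the root of F. GC content and length are medians over GENCODE 29 transcripts, and GC was known for 16652 of the 16697 genes tested (99.7%). Trends were removed through lowess offsets (span 0.3). Levels are CPM with TMM factors from all 24 libraries, and the main tests and line changes used factors from the 23.

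Named genes are up to 10 called members in each direction by smallest p, core subunits, the c ring, ATP5IF1, NDUFA4 and isoform pairs. The members and lists were chosen with earlier results of these data known. DESeq2 1.42.0, RLE size factors, GC and length trends, a filter at 1 CPM or none, a block for the harvest number, line sums, fewer groups and leaving out each library or line were tried as alternatives. Recovery was simulated with 1 mean per gene over all libraries, independent noise, no GC trend and no line effect, unlike the real libraries. For the NTC lines (16330 genes) 26.9% of 1.25-fold and 86.6% of 2-fold changes were recovered. The guide lines (16354 genes) gave 27.7% and 89.6%. Guide against NTC lines recovered 17.9% of 1.25-fold changes in DMSO and 37.3% in Nutlin-3a. The test among lines recovered 4.62% (sg6 alone raised), the difference of responses 1.49% and the difference between NTC lines 0%. Harvests are labelled biological replicates, and p-values over libraries rest on their spread, not on that between independent lines.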

Additional observations from a re-analysis of the deposited data

Results flagged for a closer look

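Dixon's test at 95% was run on 88 groups of 4, 7 or 8 libraries, for 15 subunit genes and 7 summed levels. It flagged 9 values (10.2%), several of them from the same library, where a lone test flags about 1 in 20 by chance. The 88 groups share libraries and the sums hold the genes, so the share cannot be set against that rate. Harvest 3 of NTC1 under DMSO was the high one for UQCRFS1, at 172.7 CPM against 155.6 to 157.5 in the other 3, for ATP5PD, at 112.4 CPM against 97.3 to 99.7, and for NDUFS7, at 1.33 CPM against 0.595 to 0.680. Harvest 3 of sg5 under Nutlin-3a was high for the GC-rich genes NDUFB7 (1.90 CPM against 0.409 to 0.724), NDUFS7 (1.42 CPM against 0.637 to 0.836) and ATP5F1D (2.53 CPM against 0.737 to 1.18). NDUFB7 was also high in the sg5 library with DMSO from harvest 3, at 0.854 CPM against 0.313 to 0.502. SDHA was low in the sg6 library with DMSO from harvest 1, at 63.4 CPM against 70.8 to 76.7, and ATP5PD was low in harvest 3 of sg2 under Nutlin-3a, at 106.9 CPM against 116.6 to 120.3.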

How the results depend on the processing

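Counts of called subunit genes in the NTC lines were 3 in the main setting, 1 with the divergent library kept, as counted and with the GC trend removed alike, 3 with the GC trend removed and that library left out, 8 with a filter at 1 CPM and 8 with DESeq2, and 2 to 5 when each library was left out (5 without sg5 Nutlin-3a harvest 3). In the guide lines the main count of 36 became 56 with RLE size factors, 65 with a filter at 1 CPM, 59 with DESeq2, 62 with the GC trend removed, 60 with GC and length trends removed, 66 with the divergent library and the GC trend removed, and 20 to 52 when each library was left out (22 without sg4 Nutlin-3a harvest 1, 20 without sg6 Nutlin-3a harvest 3). In the guide lines the shares of all genes called were 38.5% in the main setting, 38.5% with RLE size factors and 48.7% at 1 CPM. They were 38.9% with DESeq2, 45.3% with the GC trend removed and 45.6% with GC and length trends removed. With the divergent library kept and the GC trend removed 7367 of 16371 genes were called. In the NTC lines 4137 of 16697 genes were called in the main setting, 4975 of 16697 with the GC trend removed and 4061 of 15078 with DESeq2. With the divergent library kept 1344 of 16371 were called there, and 3681 of 16371 with the GC trend also removed. All-gene shares for most other settings are not given. The labels do not tie a harvest number to a day or batch, and same-numbered libraries correlated at 0.0188 to 0.324, positive in all 6 lines but over 0.1 in only 3, so the numbers were not used as pairs. With the harvest number as a block the counts were 3 in the NTC lines, 36 in the guide lines and 0 among lines, and with the block and the GC trend removed 62 in the guide lines. The comparison of guide with NTC lines in DMSO called 0 to 55 when a line was left out and the difference of responses 0 to 38, with 55 and 38 without NTC2, and 19 from harvest 1 alone. Among lines in DMSO 25 were called with no filter, 20 with DESeq2 and 0 to 6 when each library was left out (6 without NTC1 DMSO harvest 1). The difference between NTC lines gave 7 with no filter and 0 to 12 when each library was left out (12 without NTC1 DMSO harvest 1). The cause of these shifts was not tested. None of the 14 named gene responses reversed. Subunit medians did change sign: -0.03 in the NTC lines went to 0.04 with a filter at 1 CPM, -0.11 for guide against NTC lines in DMSO to 0.03 without NTC1, and 0.14 for the difference of responses to -0.00 without NTC1. NDUFV3 kept its call in 36 of 36 settings in both sets of lines, SDHC in 34 and UQCRFS1 in 17 and 31. A subunit gene with no count could lie as high as 0.0452 CPM in the smallest library. Levels per length were set with the median transcript length, and 20 of 22 moved by more than 1 SD with the longest.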
